A study of Bos taurus with 8 samples.

Results

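The genes of WNT signaling were examined in granulosa cells of 8 lactating German Holstein cows, of which 4 had been exposed to heat stress (HS) and 4 were pair-fed controls (PF). Members were the transcript clusters of the Bovine Gene 1.0 ST array that carry a single gene symbol of the families WNT, FZD, DKK 1 to 4, SFRP 1 to 5, AXIN 1 and 2 or TCF7, or the symbol LRP5, LRP6, LEF1 or CTNNB1. This gave 42 genes of the 19901 named on the array, each with 1 transcript cluster. They were 17 ligands, 9 frizzled receptors, 2 co-receptors, 8 secreted antagonists, 2 scaffold proteins and 4 genes of the nuclear end of the pathway. HS cows were kept at 28°C and 52% relative humidity (temperature humidity index 76) and PF cows at 15°C and 64% relative humidity (index 60), in a climate chamber for 96 h. Feed of the PF cows was restricted to the proportion that HS cows had eaten. Cows of both groups were given 500 µg prostaglandin F2α 72 h before slaughter and, 49 h after it, 100 µg of a GnRH analog that induces the LH surge. Mural granulosa cells, the layer attached to the follicle wall, were scraped from the dominant follicle 23 h after GnRH, and each cow gave 1 array. Cows of both groups thus received GnRH, and follicles of cows without it were not compared here.

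WNT proteins are secreted ligands that bind frizzled receptors at the cell surface. Together with the co-receptors LRP5 or LRP6 they halt the breakdown of β-catenin, the product of CTNNB1, which the AXIN scaffolds otherwise promote, and β-catenin then acts in the nucleus with the TCF and LEF factors. Other ligands, of which WNT5A is the best studied, mainly act through routes that do not need β-catenin. Antagonists of the SFRP family bind the ligands themselves, whereas DKK1 and DKK2 bind the LRP co-receptors. In the mouse ovary, Fzd4 is needed for a functional corpus luteum, Wnt5a in granulosa cells is needed for normal follicle growth, and Sfrp4 rises in granulosa cells after the LH surge.

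Signals are given as log2 values after the robust multichip average (RMA), so that a difference of 1 is a doubling of the signal. The medians of single arrays lay between 5.27 and 5.44. The 14 granulosa markers averaged 8.59 ± 0.23 in PF and 8.90 ± 0.17 in HS (SD, n = 4), but the 14 fibroblast and smooth muscle markers also averaged 8.72 ± 0.91 and 7.94 ± 0.80, well above the array medians. PF replicate 3 stood apart from the other arrays: PTGS2, which encodes the prostaglandin synthase induced by the LH surge, was at 3.46 there, at 10.03 to 10.72 in the other PF arrays and at 10.69 to 11.02 in HS. This array thus lacked the high PTGS2 signal of all the others, although its cow is labelled like the rest of PF. Single granulosa markers also shifted there, in both directions, which their mean hides. HSD3B1 was at 7.36 in PF replicate 3 and at 10.32 to 11.24 in the other PF arrays, and INHA and CYP11A1 were likewise lowest there. INHBA was at 9.97 as against 7.63 to 8.60, and FOXL2 and FSHR were also the highest of PF there. HS replicate 4 stood apart in CYP19A1, the aromatase gene, at 10.65 as against 4.42 to 6.92 on the other arrays. Results were therefore also computed without each array in turn. As each array averages a mixture of cells, fewer cells of a type and less RNA per cell cannot be told apart.

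Among the WNT genes more had a lower than a higher mean in HS, a balance that moved with the scaling of the arrays. In HS the mean signal was higher for 14 members and lower for 28, that is, 33.3% were higher, as against 45.3% of all named genes. With array medians subtracted, 19 of the 42 were higher (45.2%, and 57.5% of all named genes), and after repeated quantile normalization 17 (40.5% and 48.1%). The median log2 fold change (HS minus PF) was -0.07 for the members and -0.02 for all named genes. The absolute log2 fold change was under 0.2 in 22 members and the fold change exceeded 1.5 in 6 (14.3%, as against 6.95% of all named genes). The adjusted p-values of the members in limma (Benjamini-Hochberg over all 26773 clusters) lay between 0.683 and 0.999, so no member passed at 0.05, nor did any other cluster on the array with either tool (1928 clusters had an unadjusted limma p under 0.05, and 1802 by the methods' t-test). The thresholds used in the study, a fold change above 1.5 with an unadjusted p under 0.05, were met by DKK3, which was higher in HS, and WNT5A, which was lower. These are 2 of 42 members (4.76%), and 2.11% of all named genes met them. Neither met them with the methods' t-test, the form that the unpaired analysis of variance takes for 2 groups. With that test 1.2% of all named genes met them. An unadjusted limma p under 0.05 was reached by 8 members (19.0%) and by 7.15% of all named genes. Of the 8 members, WNT2B, LRP5, DKK3 and CTNNB1 were higher in HS, and WNT5A, FZD10, SFRP1 and TCF7 were lower. The methods' t-test gave a p under 0.05 for 4 of the 42 members, all of them among these 8, namely WNT2B, LRP5, SFRP1 and CTNNB1. Over all named genes it did so for 6.75%. HS and PF values did not overlap in 5 members (11.9%), which were WNT2B, LRP5, DKK3 and CTNNB1 with all HS arrays above all PF arrays and WNT5A with all HS arrays below, and in 4.71% of all named genes.

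**Figure D1:**
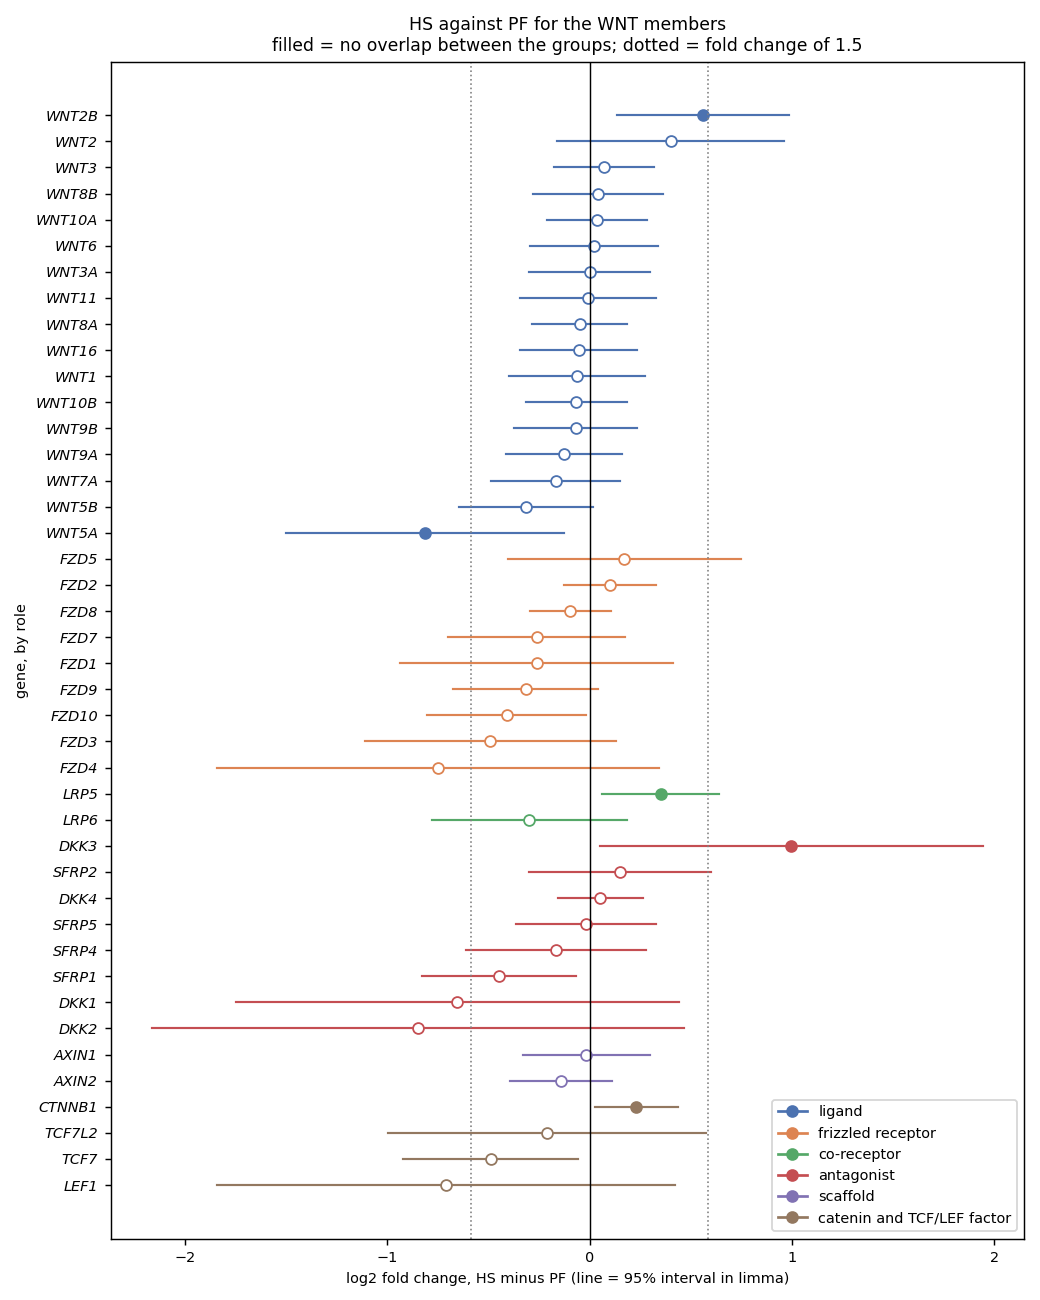
Log2 fold change (HS minus PF) of each of the 42 WNT members on the x axis, with the 95% interval from limma, grouped and coloured by role on the y axis. Filled points are the 5 members whose groups do not overlap, and the dotted lines mark a fold change of 1.5, which only WNT5A, FZD4, DKK1, DKK2 and LEF1 passed downwards and DKK3 upwards.

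Ligand genes mostly had weak signals and similar values in both groups. The mean log2 signal over the 8 arrays lay between 2.82 and 5.81, and for 11 of the 17 ligands it was under 5.5, near the medians of the arrays. In 13 of them the groups differed by less than 0.2 on the log2 scale. WNT5A was the ligand with the largest difference, but its signal was weak. Its mean of 4.96 over the 8 arrays lay below all array medians, and it was not fitted where a mean of at least 5 was required. Its log2 signals were 5.25, 5.12, 6.32 and 4.77 in PF replicates 1 to 4 and 4.35, 4.51, 4.70 and 4.63 in HS replicates 1 to 4. All HS values lay below all PF values, by a gap of 0.07 between the nearest arrays, and PF replicate 3 was far above the rest. The log2 fold change was -0.81 (SE 0.30, limma p = 0.0254, adjusted p = 0.683, exact permutation p = 0.0286, the smallest that 4 against 4 arrays allow), which is a signal 1.76 times as high in PF. Its 95% interval reached from -1.50 to -0.13. With 1 array omitted it lay between -1.01 and -0.50, and the thresholds were met in 5 of 8 fits. They were not met without PF replicate 3 (-0.50), HS replicate 1 (-0.75) or HS replicate 2 (-0.80), without PF replicates 1 and 3 (-0.39) or with array weights (-0.41). WNT5B, a close relative of WNT5A, also had a lower mean in HS (4.87 against 5.19) but the groups overlapped and the log2 fold change of -0.31 had a limma p of 0.0602 (adjusted p = 0.683).

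WNT2B, a ligand that acts through β-catenin, went the other way. Its log2 signals were 5.50, 5.25, 4.85 and 5.31 in PF and 6.15, 5.61, 5.89 and 5.51 in HS. Every HS array was above every PF array, but HS replicate 4 and PF replicate 1 lay only 0.0036 apart, and the groups overlapped when array medians were subtracted or quantile normalization was repeated, although both thresholds were then met (log2 fold changes of 0.62 and 0.60). The log2 fold change of 0.56 (SE 0.19, limma p = 0.0159, adjusted p = 0.683, exact permutation p = 0.0286) corresponds to a fold change of 1.47. The limma p stayed under 0.05 whichever of the 8 arrays was left out, with log2 fold changes from 0.43 to 0.65, and in 4 of these 8 fits both thresholds were met. WNT2, the relative of WNT2B, was at 4.73, 4.87, 4.69 and 5.78 in PF and at 5.69, 5.28, 5.26 and 5.45 in HS. PF replicate 4 was the highest of all 8 arrays, the remaining PF arrays were below every HS array, and the log2 fold change was 0.40 (limma p = 0.138, adjusted p = 0.702, exact permutation p = 0.171) or 0.65 without PF replicate 4, where it met the thresholds.

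WNT7A, the ligand shown for its mean signal, was at 5.77, 5.86, 5.77 and 6.17 in PF and at 5.75, 5.48, 5.69 and 5.97 in HS. The groups overlapped, and the log2 fold change was -0.17 (95% interval -0.49 to 0.15). The remaining 12 ligands, WNT1, WNT3, WNT3A, WNT6, WNT8A, WNT8B, WNT9A, WNT9B, WNT10A, WNT10B, WNT11 and WNT16, had log2 fold changes between -0.13 for WNT9A and 0.07 for WNT3, and in all of them the groups overlapped. Among these are 4 pairs of ligands that are direct neighbours in the RefSeq annotation of assembly ARS-UCD2.0: WNT9B with WNT3 on chromosome 19, WNT6 with WNT10A on chromosome 2, WNT1 with WNT10B on chromosome 5 and WNT3A with WNT9A on chromosome 7. No cluster with the symbol WNT4 or WNT7B was analysed here. A cluster described as protein Wnt-4-like (LOC789600) had a log2 fold change of 0.05 and a cluster described as 7B-like (LOC100337066) one of -0.11.

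**Figure D2:**
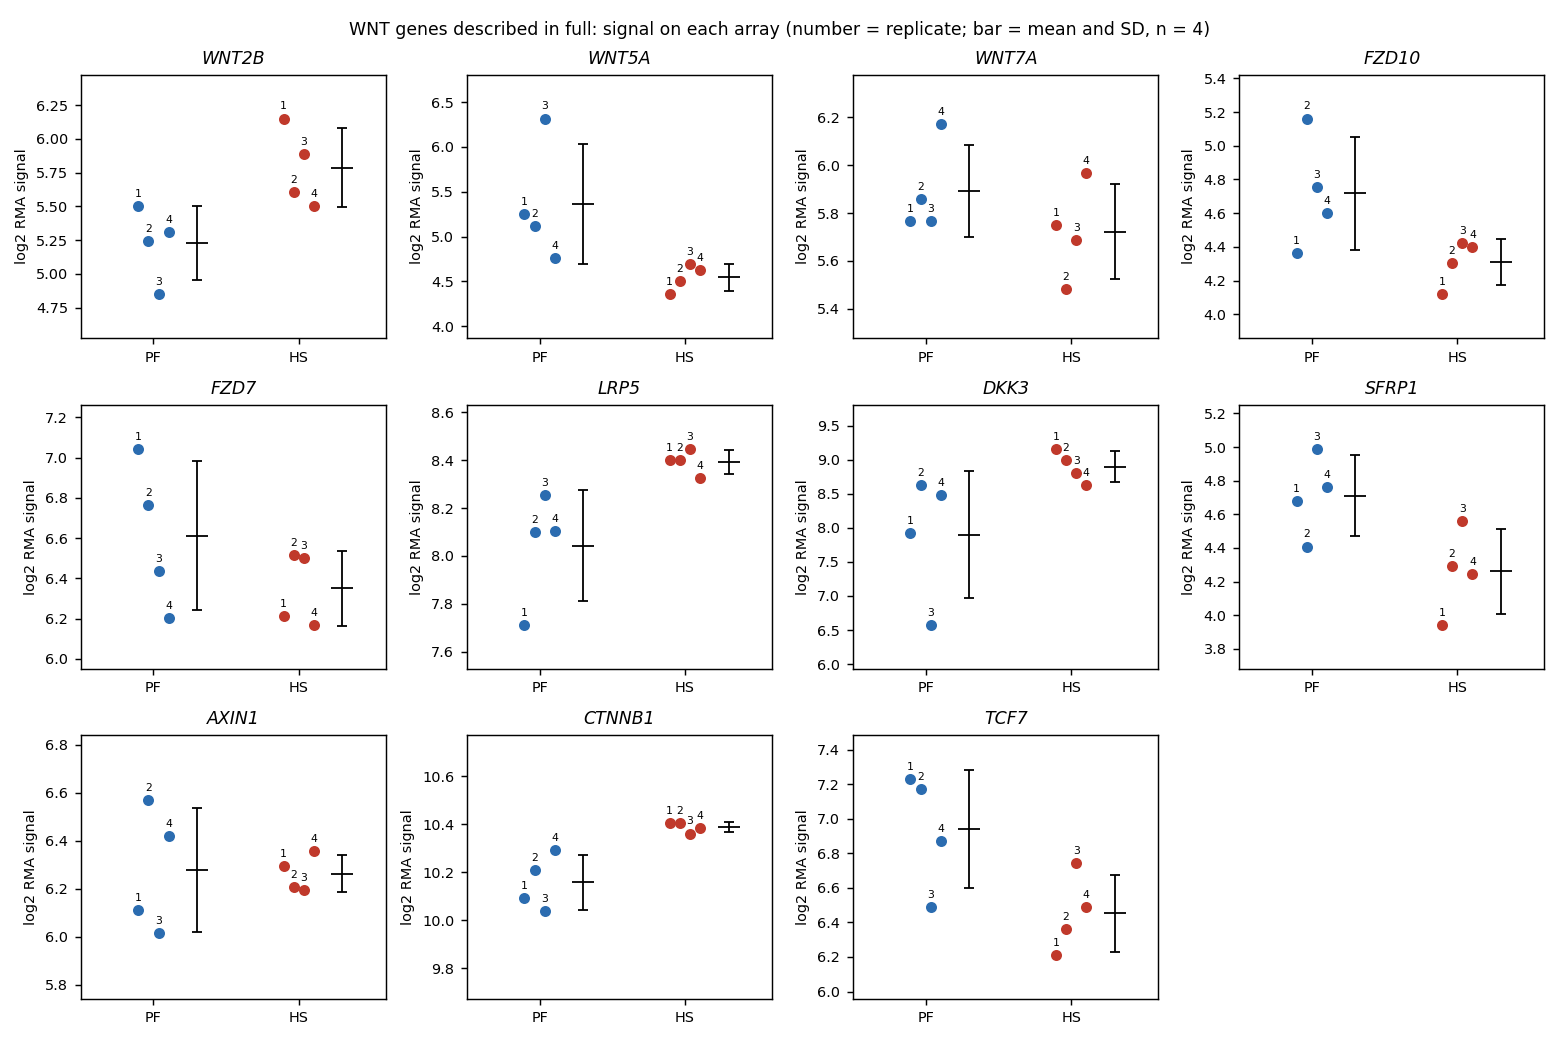
Log2 RMA signal (y axis, a separate scale for each gene) on each of the 4 PF and 4 HS arrays (x axis, numbered by replicate), with mean and SD, for the 11 WNT members described in full. In WNT5A, DKK3 and CTNNB1 the HS arrays lie close together while the PF arrays spread, and PF replicate 3 is the PF array farthest from HS in all 3.

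Of the 9 frizzled receptors, 7 had a lower mean in HS, and the median log2 fold change of the 9 was -0.26. The count of 7 was the same with array medians subtracted and after repeated quantile normalization. FZD10 was the only receptor with an unadjusted limma p under 0.05. Its log2 signals were 4.36, 5.16, 4.75 and 4.60 in PF and 4.12, 4.30, 4.42 and 4.40 in HS. The signals were weak, and PF replicate 1 was lower than HS replicates 3 and 4, so that the groups overlapped. The log2 fold change was -0.41 (SE 0.17, limma p = 0.0423, adjusted p = 0.683, exact permutation p = 0.0857), and it lay between -0.53 and -0.26 when 1 array was left out. The limma p was under 0.05 in 1 of these 8 repeats, that without PF replicate 1, and it was 0.0702 with array medians subtracted and 0.0537 after repeated quantile normalization. FZD7, the receptor shown for its mean signal, was at 7.04, 6.76, 6.44 and 6.20 in PF and at 6.21, 6.52, 6.50 and 6.17 in HS. These values overlapped widely, and the log2 fold change of -0.26 had a 95% interval from -0.70 to 0.17.

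FZD4, the receptor needed for luteal function in the mouse, had the largest difference of the receptors but also a wide spread. Its log2 signals were 7.44, 5.35, 6.37 and 5.83 in PF and 4.87, 5.33, 6.41 and 5.37 in HS. PF replicate 1 was the highest and HS replicate 3 lay above 3 of the PF arrays. A log2 fold change of -0.75 (SE 0.48, limma p = 0.152, adjusted p = 0.708, exact permutation p = 0.286) resulted, which lay between -1.06 (without HS replicate 3) and -0.35 (without PF replicate 1) when 1 array was omitted. FZD1 and FZD3 had their highest signals in PF replicate 3, at 7.47 and 7.10, as against 5.87 to 6.56 and 5.83 to 6.48 in the other PF arrays. Without that array the log2 fold change of FZD1 went from -0.26 to 0.03 and that of FZD3 from -0.49 to -0.23, while without PF replicate 1 FZD3 was at -0.66 and met the thresholds. The others were FZD9 (-0.32), FZD8 (-0.09), FZD2 (0.10) and FZD5 (0.17). No cluster with the symbol FZD6 was analysed here, and the clusters described as frizzled-3-like, LOC787577 and LOC782348, had log2 fold changes of -0.18 and -0.20.

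The LRP co-receptors, which most frizzled receptors need to stabilise β-catenin, had opposite signs. LRP5 was at 7.71, 8.10, 8.25 and 8.11 in PF and at 8.40, 8.40, 8.45 and 8.32 in HS. All HS arrays were above all PF arrays, by 0.07 between the nearest, whereas they overlapped when quantile normalization was repeated. This gave a log2 fold change of 0.35 (SE 0.13, limma p = 0.0224, adjusted p = 0.683, exact permutation p = 0.0286), a fold change of 1.28. It lay between 0.24 and 0.42 when 1 array was left out, and the limma p was under 0.05 in 7 of these 8 repeats. That p was 0.0657 after repeated quantile normalization and 0.00851 with array medians subtracted. LRP6 was at 8.27, 8.12, 8.87 and 7.90 in PF and at 7.74, 7.98, 8.25 and 8.01 in HS. PF replicate 3 was the highest, and the log2 fold change of -0.30 (95% interval -0.78 to 0.18) became -0.10 without it. The difference between the fold changes of LRP5 and LRP6 was not tested.

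DKK3 had the largest difference among the antagonist members and among all members. It belongs to the dickkopf family by sequence, but its action on WNT signaling is less settled than that of DKK1. Its log2 signals were 7.92, 8.62, 6.58 and 8.48 in PF and 9.16, 9.00, 8.80 and 8.63 in HS. The PF mean was 7.90 ± 0.93 and the HS mean 8.90 ± 0.23 (SD, n = 4). Every HS array was above every PF array, by only 0.0095 between HS replicate 4 and PF replicate 2, and the groups overlapped once array medians were subtracted. HS exceeded PF by a log2 fold change of 1.00 (SE 0.41, limma p = 0.0411, adjusted p = 0.683, exact permutation p = 0.0286), that is, a signal 2.00 times as high in HS. It lay between 0.56 and 1.24 when 1 array was left out. Leaving out PF replicate 3 lowered it to 0.56, and leaving out PF replicates 1 and 3 to 0.35. With 1 array omitted, the study's thresholds were met in only 2 of 8 fits, those without PF replicate 2 or PF replicate 4.

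SFRP1, a secreted protein that holds WNT ligands away from their receptors, had weak signals of 4.68, 4.41, 4.99 and 4.76 in PF and 3.94, 4.29, 4.56 and 4.25 in HS. Only HS replicate 3 reached into the PF range, above PF replicate 2. The log2 fold change was -0.45 (SE 0.17, limma p = 0.0258, adjusted p = 0.683, exact permutation p = 0.0571), and it lay between -0.55 and -0.34 when 1 array was left out. The limma p was under 0.05 in 4 of these 8 repeats, and it was 0.128 without PF replicates 1 and 3. The other members with an SFRP symbol were closer, at -0.17 for SFRP4, -0.02 for SFRP5 and 0.15 for SFRP2, which turned to -0.01 without HS replicate 3. FRZB, of the same family, was not a member and is given with the further genes. For SFRP4, the gene induced by the LH surge in the mouse, the log2 signals were 5.30, 4.72, 5.63 and 4.98 in PF and 5.09, 5.11, 5.01 and 4.77 in HS.

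DKK1, the best known inhibitor of the LRP co-receptors, was near the low end of the scale on all arrays but 1. Its log2 signals were 3.43, 5.69, 3.39 and 3.60 in PF and 3.32, 3.52, 3.34 and 3.31 in HS. Its log2 fold change of -0.65 (limma p = 0.207, adjusted p = 0.731, exact permutation p = 0.171) rested on PF replicate 2 and was -0.10 without it. DKK2 was at 7.88, 5.52, 6.28 and 7.00 in PF and at 5.15, 6.03, 7.00 and 5.11 in HS. Its log2 fold change of -0.85 was larger than that of WNT5A, but the arrays of both groups spread over more than 1 unit and overlapped (SE 0.57, limma p = 0.177, adjusted p = 0.717, exact permutation p = 0.257). It was -0.44 without PF replicate 1 and -1.24 without HS replicate 3. DKK4 had a weak signal and a log2 fold change of 0.05.

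The AXIN scaffolds, which hold the complex that marks β-catenin for breakdown, had small differences. AXIN1 was at 6.11, 6.57, 6.01 and 6.42 in PF and at 6.29, 6.21, 6.19 and 6.36 in HS. The HS values lay inside the PF range, and the log2 fold change of -0.02 (95% interval -0.33 to 0.30) turned to 0.04 when array medians were subtracted. AXIN2, which is itself switched on by β-catenin in many tissues and serves as a reader of the pathway, was at 6.01, 6.08, 6.24 and 6.18 in PF and at 5.86, 5.88, 6.01 and 6.20 in HS. HS replicates 1 to 3 were below every PF array while HS replicate 4 was within the PF range, and the log2 fold change was -0.14 (95% interval -0.39 to 0.11, limma p = 0.231, adjusted p = 0.738, exact permutation p = 0.171).

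CTNNB1, which encodes β-catenin, was at 10.09, 10.21, 10.04 and 10.29 in PF and at 10.41, 10.41, 10.36 and 10.39 in HS. The means were 10.16 ± 0.11 in PF and 10.39 ± 0.02 in HS (SD, n = 4), and all HS arrays were above all PF arrays, with 0.07 between the nearest. In size the difference was small, at a log2 fold change of 0.23 (SE 0.09, limma p = 0.0325, adjusted p = 0.683, exact permutation p = 0.0286), a fold change of 1.17. With 1 array omitted it lay between 0.19 and 0.28, and the limma p was under 0.05 in 2 of 8 such repeats. Without PF replicates 1 and 3 it was 0.14. The limma p was 0.0210 with array medians subtracted, but 0.0709 after repeated quantile normalization, 0.0811 with array weights and 0.0659 with the replicate block.

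The TCF and LEF factors, the partners of β-catenin on DNA, all had lower means in HS. TCF7 was at 7.23, 7.17, 6.49 and 6.87 in PF and at 6.21, 6.36, 6.74 and 6.49 in HS. PF replicate 3 was the lowest PF array and lay at the level of HS replicate 4, while HS replicate 3 was the highest HS array. The log2 fold change was -0.49 (SE 0.19, limma p = 0.0307, adjusted p = 0.683, exact permutation p = 0.0857). With 1 array omitted it lay between -0.64 and -0.39, with a limma p under 0.05 in 3 of 8 repeats, and both thresholds of the study were met without PF replicate 3 (-0.64) or HS replicate 3 (-0.59). The limma p was 0.0579 with array medians subtracted and 0.0844 with the replicate block. LEF1 was at 8.07, 5.71, 7.51 and 6.60 in PF and at 5.87, 6.13, 7.00 and 6.05 in HS. PF replicate 2 was the lowest of all 8 arrays, so that all HS arrays lay inside the PF range, and the log2 fold change of -0.71 (SE 0.49, limma p = 0.187, adjusted p = 0.722, exact permutation p = 0.257) was -1.13 without PF replicate 2, where it met the thresholds, and -0.34 without PF replicate 1. It turned to 0.11 when PF replicates 1 and 3 were left out. TCF7L2 was at 7.08, 6.80, 8.57 and 7.32 in PF and at 7.29, 7.12, 7.17 and 7.35 in HS. Its log2 fold change of -0.21 turned to 0.16 without PF replicate 3, the highest array. No cluster with the symbol TCF7L1 was analysed here.

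**Figure D3:**
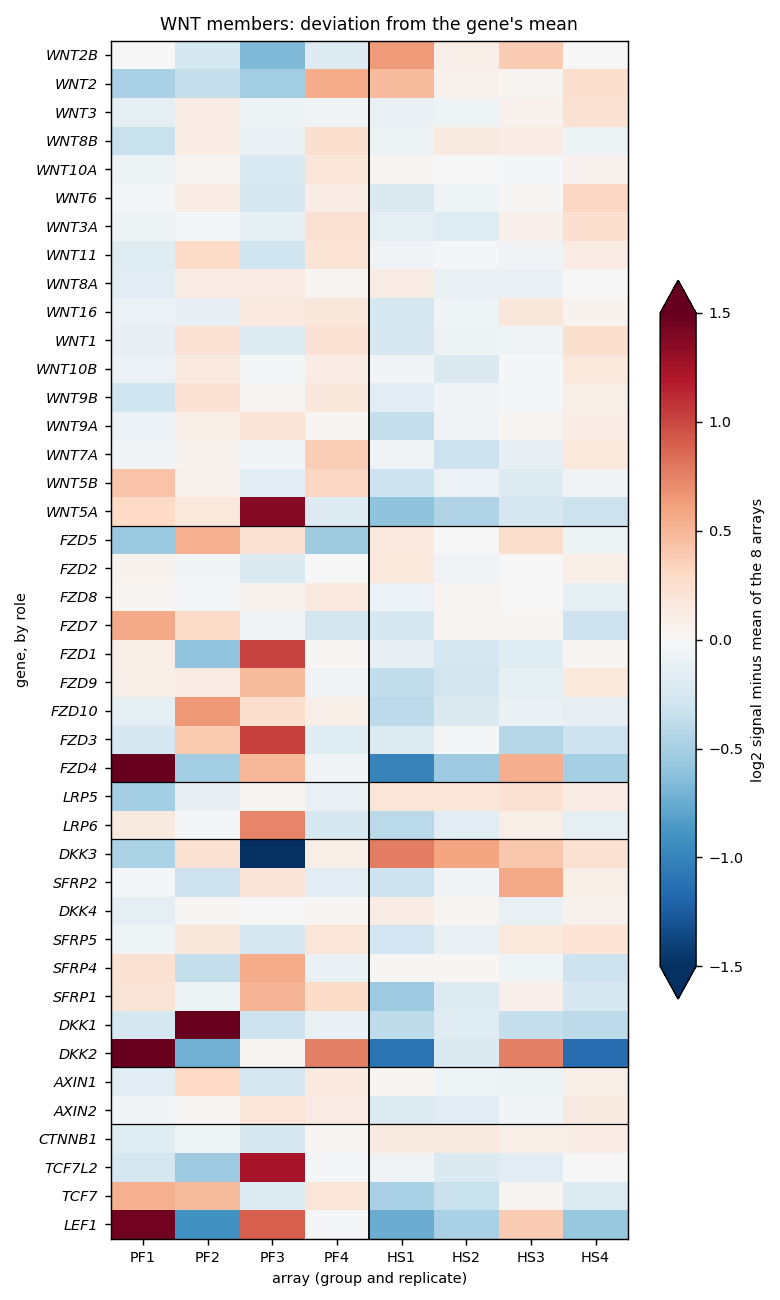
Log2 signal of each WNT member (rows, ordered by role) on each array (columns) as the difference from that gene's mean over the 8 arrays, with red above and blue below the mean and colours capped at 1.5. The strongest colours stand in PF replicates 1, 2 and 3, among them WNT5A, DKK3 and TCF7L2 in PF replicate 3, DKK2, FZD4 and LEF1 in PF replicate 1 and DKK1 in PF replicate 2.

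The sign of the log2 fold change was the same in all 8 repeats without 1 array for 30 of 42 members, among them the 5 without overlap, for which it could not change. The PF arrays differed more among themselves than the HS arrays for many members. The SD was larger in PF for 27 of 42 members (64.3%) and for 77.7% of all named genes, and the median SD of the members was 0.25 in PF and 0.16 in HS. The array farthest from the median of the 8 was PF replicate 3 for 14 members (33.3%, and 37.6% of all named genes) and PF replicate 1 for 12 members (28.6% and 21.6%). PF replicate 3 was the farthest array for WNT2B, WNT5A, DKK3, CTNNB1 and TCF7L2, and PF replicate 1 for LRP5, DKK2, FZD4, LEF1 and TCF7. PF replicate 3 had the highest signal of all 8 arrays for 11 members and the lowest for 9, and HS replicate 1 had the lowest for 13.

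**Figure D4:**
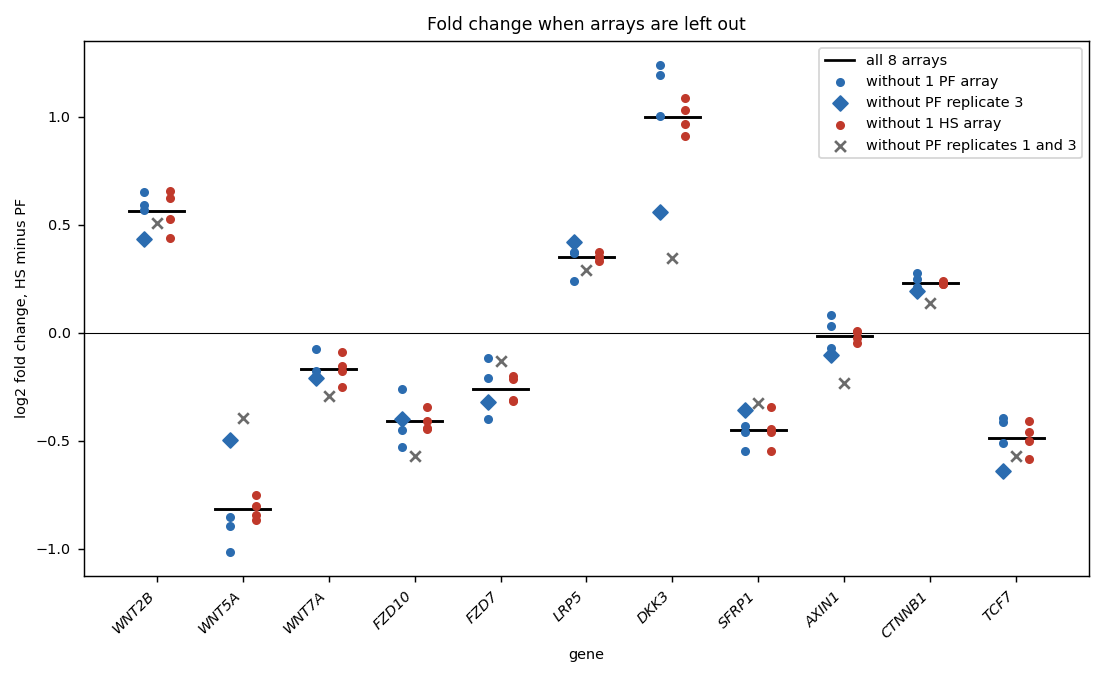
Log2 fold change (y axis, HS minus PF) of the 11 WNT members described in full (x axis) over all 8 arrays (line), when 1 PF or 1 HS array is left out (points, with a diamond for PF replicate 3) and when both PF replicates 1 and 3 are left out (cross). WNT5A and DKK3 move from -0.81 to -0.50 and from 1.00 to 0.56 without PF replicate 3, and with 1 array left out WNT2B lies between 0.43 and 0.65, LRP5 between 0.24 and 0.42 and CTNNB1 between 0.19 and 0.28.

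DKK2, FZD4, LEF1 and SFRP1 had the same 4 highest arrays, PF replicates 1, 3 and 4 and HS replicate 3. These were also the 4 arrays with the highest mean signals of the fibroblast and smooth muscle, endothelial, myeloid, and T lymphocyte and pan-leukocyte markers (this pattern was noticed after the values had been seen). Of all named genes, 1167 (5.86%) had these same 4 arrays on top. The 5 theca markers did not. Their mean signal was 9.18, 7.98, 6.47 and 7.94 in PF replicates 1 to 4, lowest in PF replicate 3, and 7.26 to 8.16 in HS. STAR, 1 of the 5, was in the granulosa list too, so this mean does not read theca cells alone. LEF1 and TCF7 are T lymphocyte transcription factors as well, but TCF7 did not share the 4 highest arrays of LEF1. Among PF arrays TCF7 was lowest in replicate 3 (6.49), where the T lymphocyte and pan-leukocyte markers had their highest mean (5.53). LEF1 and DKK2 lie on the same chromosome with 4 protein-coding genes between them in assembly ARS-UCD2.0. Of all 19901 named genes, 10890 had a lower mean in HS. The endothelial markers were lower in HS for 10 of 10 genes, with a mean of 7.19 ± 1.24 in PF and 6.35 ± 1.08 in HS (SD, n = 4), and their signals, summed on the linear scale, spanned 535 to 5014 in PF and 493 to 3099 in HS. The fibroblast and smooth muscle markers were lower in HS for 13 of 14 genes, and their summed signals spanned 5201 to 17276 in PF and 4389 to 11490 in HS. The T lymphocyte and pan-leukocyte markers were lower for 12 of 12 genes, of which 4 met the study's thresholds, with summed signals of 364 to 869 in PF and 293 to 463 in HS. All 10 myeloid markers were lower too, with 1 at the thresholds and summed signals of 815 to 5640 in PF and 804 to 1876 in HS. No endothelial marker met the thresholds, and 2.11% of all named genes did. None of these markers was at 0, as RMA values have no zero, and the part of these cells in the WNT differences was not tested. Leaving out PF replicates 1 and 3 changed FZD4 from -0.75 to -0.09, LEF1 from -0.71 to 0.11, DKK2 from -0.85 to -0.44 and SFRP1 from -0.45 to -0.32. Both arrays are among those by which these genes were picked, and HS replicate 3 was kept. A rise of the fold change was thus largely set by that choice and tests nothing.

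**Figure D5:**
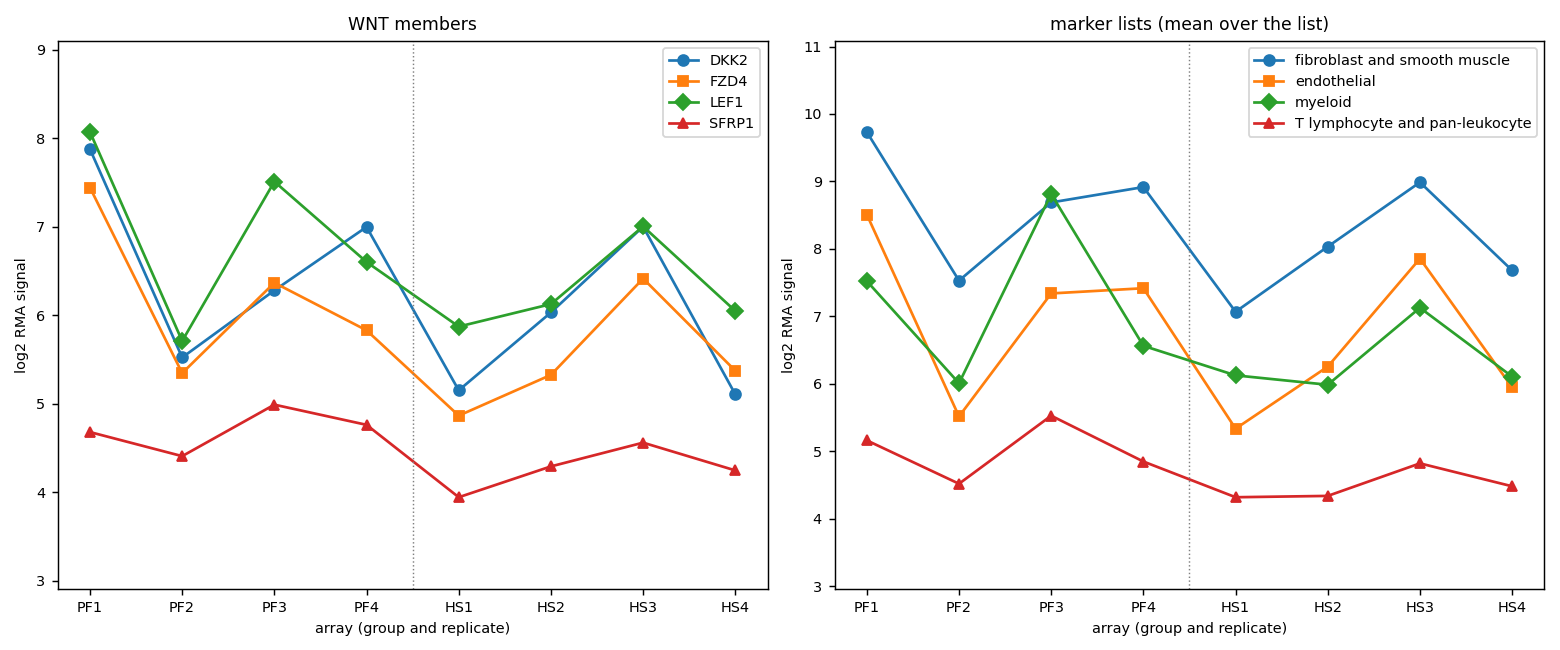
Log2 RMA signal (y axis) on each array (x axis; lines join the points of a gene or list only to guide the eye) for 4 WNT members (left) and as the mean over 4 marker lists (right). DKK2, FZD4, LEF1 and SFRP1 and all 4 lists have their 4 highest values in PF replicates 1, 3 and 4 and HS replicate 3.

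Further genes of the pathway, without a symbol of the members, were taken from a list of 62, of which 59 were found on the array (1 of them, AMER1, through its accession). In HS the mean was higher for 32 and lower for 27, with a median log2 fold change of 0.00, and with array medians subtracted it was higher for 38 and lower for 21. An unadjusted limma p under 0.05 was reached by 7 (11.9%, as against 7.15% of all named genes), and none passed after adjustment. HS and PF values did not overlap in 2 of the 59, TNKS and PYGO1, and in 4.71% of all named genes. The study's thresholds were met by 2 (and by 2.11% of all named genes), both with higher values in HS. TNIK, a kinase that acts with β-catenin and TCF factors, was at 6.85, 7.28, 6.39 and 6.66 in PF and at 7.84, 7.75, 6.99 and 7.48 in HS. Only HS replicate 3 fell below the highest PF array, and the log2 fold change of 0.72 (SE 0.24, limma p = 0.0158, adjusted p = 0.683, exact permutation p = 0.0571) met the thresholds in each of the 8 repeats without 1 array but not without PF replicates 1 and 3 (0.54). PRICKLE1, a protein of planar cell polarity, was at 6.28, 7.03, 7.60 and 6.31 in PF and at 7.39, 7.31, 7.70 and 7.79 in HS. PF replicate 3 was above HS replicates 1 and 2, and the log2 fold change of 0.75 (SE 0.30, limma p = 0.0346, adjusted p = 0.683, exact permutation p = 0.0857) met the thresholds in 4 of these 8 repeats. Of the 8 planar polarity genes 3 had higher means in HS, or 4 with array medians subtracted or quantile normalization repeated, and DAAM1 had a log2 fold change of -0.10, which turned to 0.21 without PF replicates 1 and 3.

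Among the genes for ligand release and other receptors, 5 of 14 had higher and 9 lower means in HS. RYK, a receptor that binds WNT5A among others, was at 10.09, 10.63, 10.33 and 10.78 in PF and at 11.00, 10.73, 10.72 and 10.97 in HS. PF replicate 4 was inside the HS range, and the log2 fold change was 0.40 (limma p = 0.0402, adjusted p = 0.683, exact permutation p = 0.0857), or 0.15 without PF replicates 1 and 3. ROR1, another receptor of WNT5A, had a log2 fold change of 0.25, which lay between -0.04 and 0.60 when 1 array was left out and was -0.49 without PF replicates 1 and 3. WLS, which carries WNT proteins to the cell surface, had one of -0.56, or -0.10 without both these arrays, and the groups of both genes overlapped. Of the antagonists that were not members, 5 of 7 had lower means in HS (4 of 7 under either other scaling), none with an unadjusted limma p under 0.05. The values were 0.24 for DKKL1 and 0.06 for KREMEN1, a receptor of the DKK proteins, and they turned to -0.09 and -0.0031 without PF replicates 1 and 3. FRZB, an antagonist related to the SFRP genes, was at 7.65 in PF replicate 3 and between 3.09 and 4.58 on the other arrays, and RSPO3 and LGR5, a ligand and a receptor that strengthen WNT signals, were also highest in that array, at 7.65 and 5.69.

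In the cytoplasm 14 of 20 genes had higher means in HS, which were 17 with array medians subtracted and 12 after repeated quantile normalization. The tankyrases TNKS and TNKS2 promote the breakdown of AXIN proteins. TNKS was at 8.86, 9.31, 9.01 and 9.33 in PF and at 9.42, 9.44, 9.62 and 9.33 in HS. All HS arrays were above all PF arrays, though HS replicate 4 and PF replicate 4 nearly met, and the log2 fold change was 0.33 (limma p = 0.0387, adjusted p = 0.683, exact permutation p = 0.0286). TNKS2 had a log2 fold change of 0.21 with overlapping groups. NKD1 and CXXC5, both inhibitors that act on dishevelled, had log2 fold changes of -0.37 and -0.46, each with an unadjusted limma p under 0.05. Their relatives NKD2 and CXXC4 were not lower in HS. The log2 fold change was 0.00 for NKD2 and 0.84 for CXXC4, both with overlapping groups. That of CXXC4 turned to -0.40 without PF replicates 1 and 3. In the nucleus 8 of 10 genes had higher means in HS (9 under either other scaling), and PYGO1, a co-activator that binds the β-catenin complex through BCL9, was at 7.54, 7.30, 7.28 and 7.56 in PF and at 7.96, 7.91, 7.71 and 7.80 in HS. Here too the groups did not overlap, and the log2 fold change of 0.43 (SE 0.11, limma p = 0.00395, adjusted p = 0.641, exact permutation p = 0.0286) had a limma p under 0.05 in each of the 8 repeats without 1 array. TLE3, a corepressor of TCF factors, and BCL9 had log2 fold changes of 0.23 and 0.34 and overlapping groups. That of TLE3 lay between -0.21 and 0.55 when 1 array was left out.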

How the data were processed

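RNA of granulosa cells of each cow was hybridised by the authors to 1 Bovine Gene 1.0 ST array. The deposited values are log2 signals that the authors made in the Expression Console with RMA and default settings (background correction, quantile normalization and summary to transcript clusters); array build and probe positions are not given in the sources used here. A symbol is given for 20378 of 26773 clusters, several for 196 and none for 6199. No filter on weak signals was set, and means were ranked between genes only to choose which to show, since probes differ and such ranks do not order RNA levels. Differences between HS and PF were fitted in limma 3.58.1 (lmFit, eBayes; R 4.3.3), with Benjamini-Hochberg adjustment over all clusters. Exact two-sided permutation tests over 70 assignments cannot give a p under 0.0286. The number of arrays limits the precision.

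The members and lists were chosen with earlier results of these data known. Described in full were members that met the thresholds, had an unadjusted limma p under 0.05 or groups without overlap, or had the highest mean of their role, and a few others were added after their values were seen. Of the further genes, those at the thresholds and the brightest of each role were named, and others, also added later, for an unadjusted p or a single high array. The procedure was tested on simulated data. As alternatives, the fit was repeated with the methods' t-test, with an intensity trend in eBayes, with weights for arrays, on clusters whose mean log2 was 5 or more, on clusters with a single symbol, after subtraction of array medians, after another round of quantile normalization, on the second deposited table, on the mean over the clusters of a symbol, with a block for the replicate number, without each array, and without both PF replicates 1 and 3. Sequences of the members were not used here.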

Additional observations from a re-analysis of the deposited data

Results flagged for a closer look

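Of the 84 groups of 4 arrays (42 members in PF and in HS), 4 held an array farther from the others than Dixon's critical value at the 95% level allows. Chance alone gives about 1 in 20, and 6.40% of the groups over all named genes passed the same value, as against 4.76% here. DKK1 in PF was at 5.69 in replicate 2 and at 3.39 to 3.60 in the others, and in HS it was at 3.52 in replicate 2 and at 3.31 to 3.34 in the others. WNT2 in PF was at 5.78 in replicate 4 and at 4.69 to 4.87 in the others. WNT11 in HS was at 5.12 in replicate 4 and at 4.96 to 4.97 in the others.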

How the results depend on the processing

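The median log2 fold change of the members stayed between -0.11 and -0.01 over all 19 alternatives, and 10 to 19 members were higher in HS. Members at the study's thresholds numbered 2, but 0 with the methods' t-test (1.2% of all named genes) or array weights (1.46%). With a mean log2 of at least 5 there was 1 (30 members fitted, without WNT5A, and 2.95% of the named genes fitted). Without PF replicates 1 and 3 there was also 1, which was DKK1 (1.42% of all named genes). Members at the thresholds were 3, WNT2B being added, with array medians subtracted (2.36%) and after repeated quantile normalization (1.87%). Without 1 array there were 0 (without HS replicate 1) to 4 (without PF replicate 4), while the share of all named genes moved between 1.05% and 6.63%. An unadjusted p under 0.05 was reached by 8 members, but by 4 with the methods' t-test (6.75% of all named genes). It was reached by 4 with a mean log2 of at least 5 (7.75% of the named genes fitted) and 5 after repeated quantile normalization (6.39%). Without 1 array 2 (without HS replicate 1) to 7 members reached it. The share of all named genes then moved between 3.23% (without HS replicate 1) and 13.4% (without PF replicate 2). Groups without overlap numbered 5, but 3 with array medians subtracted (4.76% of all named genes). They numbered 12 without PF replicates 1 and 3, where the share over all named genes was 21.0%. Without 1 array they numbered 5 to 8, where that share was 5.70% to 10.7%. Of the further genes, 2 met the thresholds, but 1 with the methods' t-test (1.2% of all named genes) and 1 after repeated quantile normalization (1.87%). Without 1 array 1 to 5 met them, as the share of all named genes moved between 1.05% and 6.63%. Over all 26773 clusters the thresholds were met by 591, by 355 with the methods' t-test, and by 333 to 1566 without 1 array. AXIN1 (-0.02) turned to 0.042 with array medians subtracted and lay between -0.10 and 0.082 without 1 array. The cause of these changes was not tested.

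The labels link samples of the same number only by that number. The correlation of their deviations lay between -0.27 and 0.21, which does not show whether they share anything else. With the number as a replicate block, 2 members met the thresholds (2.52% of all named genes) and 6 had a p under 0.05 (6.99%). Weak signals near the array medians, as in most ligands, limit what can be seen.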
